A study of Homo sapiens with 6 samples.

Results

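The transcripts described here belong to the bone morphogenetic protein (BMP) pathway and to the ID gene family. They were 10 named genes, found by matching the Ensembl identifiers of the gene tables to symbols, out of 19493 genes with values. The ligand genes were BMP2 (ENSG00000125845) and BMP6 (ENSG00000153162), the antagonist gene was GREM1 (ENSG00000166923), and the receptor genes were BMPR1A (ENSG00000107779) and BMPR2 (ENSG00000204217). SMAD6 (ENSG00000137834) encodes an inhibitor of the pathway, and ID1 (ENSG00000125968), ID2 (ENSG00000115738), ID3 (ENSG00000117318) and ID4 (ENSG00000172201) encode inhibitors of DNA binding. The genes were chosen by their read counts and cRPKM values across the groups, as members of one pathway, so their fold changes are given as descriptions and carry no p-value.

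The study sequenced RNA of HaCaT cells, a spontaneously immortalised keratinocyte line from human skin, that expressed a photolyase of the marsupial Potorous tridactylus. This enzyme uses visible light to undo cyclobutane pyrimidine dimers (CPDs), the main DNA lesion left by UVC. There were 3 groups of 2 libraries. In the first the cells received 15 J/m2 of UVC at 254 nm and 2 h of white light switched the photolyase on (UVC with active photolyase), in the second they received the same UVC dose and the enzyme stayed inactive (UVC), and both were harvested 6 h after irradiation. In the third the cells were untreated and the enzyme was inactive (control). All groups carried the photolyase, and white light was given in the first group alone, so photolyase activity and the light itself cannot be told apart. The labels do not say whether replicates were separate cultures, so p-values reflect differences between sequenced libraries that could be technical only.

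BMPs are secreted dimers that bring type I and type II receptor kinases together. The receptors phosphorylate SMAD1, SMAD5 and SMAD9, which enter the nucleus with SMAD4 and switch on genes such as the ID genes and SMAD6. ID proteins bind E proteins and other helix-loop-helix factors and keep them off DNA. In epidermis, BMP signals take part in keratinocyte differentiation and hair follicle patterning, while ID proteins are associated with proliferating, undifferentiated keratinocytes.

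Libraries held 57669389 to 70005705 counted reads, and replicates correlated at r = 0.998 over log2 values in each group. Levels below are corrected RPKM (cRPKM: reads normalised to gene length and library total) divided by a scaling factor from the trimmed mean of M values (TMM), called scaled cRPKM. These levels are relative to the bulk of transcripts. Changing from TMM factors to library totals moved the median log2 fold change of all tested genes by -0.31 for UVC with active photolyase against UVC, by 0.42 for UVC against control and by 0.11 for UVC with active photolyase against control. In bulk RNA, fewer cells with a transcript and less of it per cell cannot be told apart. All 10 keratinocyte markers examined passed the filter, from TP63 at 48.1 ± 0.694 to KRT17 at 13675 ± 5.47 scaled cRPKM in control (SD, n = 2). Of the melanocyte markers 1 of 7 passed (MITF) and TYR had no reads in any library. Of the fibroblast markers 2 of 9 passed (COL1A1 and DCN), of the endothelial markers 1 of 5 (CDH5) and of the immune markers 5 of 11 (CD3E, CD14, CD68, CD74 and HLA-DRA), where MS4A1 had no reads in any library. The summed endothelial markers were 3.07 to 3.31 deposited cRPKM with active photolyase, 1.28 to 1.34 after UVC and 4.15 to 4.20 in control, and the immune markers 225 to 237, 273 to 281 and 145 to 163. The corresponding sums were 9.10 to 9.43, 10.1 to 10.5 and 6.76 to 7.80 for the fibroblast markers and 1.29 to 1.42, 1.76 to 2.06 and 1.94 to 1.99 for the melanocyte markers. Their part in the results was not tested.

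All 10 genes passed the filter of 1 cRPKM in at least 2 libraries, which kept 11926 genes. Calls are genes under 0.05 in edgeR's quasi-likelihood test after Benjamini-Hochberg adjustment across the whole table, as are all adjusted p-values below. Statements that groups overlap, or that a group lies above another, describe the 2 libraries of each group. The share of all genes whose groups do not overlap was not computed. For UVC with active photolyase against UVC, 3 of the 10 genes were called higher and 7 lower, where 79.1% of all tested genes were called, 39.2% higher and 39.9% lower. For UVC against control, 5 were called higher, 3 lower and 2 were not called, where 85.6% of all tested genes were called, 42.5% higher and 43.1% lower. For UVC with active photolyase against control, 6 were called higher, 3 lower and 1 was not called, where 65.8% of all tested genes were called, 33% higher and 32.9% lower. With library totals the 10 genes split into 3 higher and 7 lower in the first of these comparisons, 8 higher and 2 lower in the second, and 6 higher, 2 lower and 2 not called in the third. Over all tested genes library totals gave 3324 higher and 6939 lower (against 4676 and 4755 with TMM factors) in the first, 7091 and 3546 (against 5074 and 5140) in the second, and 5228 and 2848 (against 3933 and 3919) in the third.

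The ligand BMP6 had the widest range of the 10 genes. It was nearly lost after UVC and stood above the control level when the photolyase was active. BMP6, which is also known as a regulator of iron balance through hepcidin, had 11.6 and 12.4 scaled cRPKM with active photolyase, 0.110 and 0.110 after UVC, and 7.42 and 8.39 in control. The UVC values rest on 20 and 21 reads, against 2117 and 2184 reads with active photolyase and 1258 and 1411 in control. The libraries with active photolyase were highest and those after UVC lowest. The log2 fold change was 6.77 ± 0.13 (SE) for UVC with active photolyase against UVC and -6.17 ± 0.14 for UVC against control. These SEs were derived from the F statistic. They are smaller than the counting noise of 20 and 21 reads alone, so they overstate the precision. Against control, UVC with active photolyase was 0.61 ± 0.07 higher on the log2 scale, which is 1.52-fold.

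BMP2, a ligand closely related to BMP4, differed mainly in the libraries with active photolyase. It had 49.1 and 50.5 scaled cRPKM with active photolyase, 19.6 and 20.0 after UVC, and 22.1 and 22.9 in control. UVC with active photolyase lay above both other groups, at a log2 fold change of 1.33 ± 0.05 against UVC and 1.14 ± 0.05 against control. For UVC against control the value was -0.19 ± 0.05, and its direction turned with the scaling: with library totals it was 0.23, called higher. As deposited, BMP2 had 23.1 and 23.6 cRPKM after UVC against 19.6 and 20.3 in control.

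GREM1 encodes gremlin, a secreted protein that binds BMP2 and BMP4 and keeps them from their receptors. It had 17.2 and 18.8 scaled cRPKM with active photolyase, 0.737 and 0.947 after UVC, and 3.26 and 3.92 in control. Levels were highest with active photolyase and lowest after UVC. The log2 fold change was 4.42 ± 0.11 for UVC with active photolyase against UVC, -2.10 ± 0.12 for UVC against control and 2.33 ± 0.09 for UVC with active photolyase against control. Of the 10 genes, GREM1 had the highest value in the comparison of UVC with active photolyase against control (5.02-fold).

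GREM1 is shown with the 250 bases before its annotated start because it alone of the 5 promoters printed here held GGCGCC, the core of a GC-rich element that SMAD1 and SMAD5 bind. RefSeq promoters (GRCh38.p14) matched 9 of the 10 genes, BMP2 being the exception. The motifs searched on both strands were GGCGCC, found in 16.4% of 35116 windows of the same length, the TATA box letters TATAAA in 10.7%, the core TGACG of sites bound by CREB and ATF factors in 21.2%, and CCAAT, as in a CCAAT box, in 32.0%. Capitals mark every match, on either strand. The window of GREM1 (chr15:32717754-32718003, plus strand) had 2 GGCGCC matches and 1 CCAAT match. BMPR2 also had 1 GGCGCC match, and the windows of BMP6, SMAD6, BMPR1A and the ID genes had none. The windows of GREM1 and BMPR2 were 76.8% and 79.2% G and C, where the median of all windows was 58.0%. The 16.4% for GGCGCC is thus not a share among windows of like G and C content. A match is a description of the letters only. A long noncoding RNA on the other strand overlaps 1.29% of the exon bases of GREM1.
GREM1: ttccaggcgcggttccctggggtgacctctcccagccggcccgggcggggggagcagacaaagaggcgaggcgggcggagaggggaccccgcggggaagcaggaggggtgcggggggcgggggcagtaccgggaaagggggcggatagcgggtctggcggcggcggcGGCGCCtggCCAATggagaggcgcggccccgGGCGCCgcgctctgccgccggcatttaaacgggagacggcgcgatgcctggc

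The balance between these secreted factors can be read within a library, where no scaling between libraries enters. BMP6 stood at 0.237 and 0.246 of the BMP2 level per length with active photolyase, 0.00562 and 0.00551 after UVC, and 0.335 and 0.366 in control. GREM1 stood at 0.351 and 0.373 of the BMP2 level with active photolyase, 0.0376 and 0.0474 after UVC, and 0.147 and 0.171 in control. Against these ratios the libraries with active photolyase held more GREM1 per BMP2, and less BMP6 per BMP2, than control. Of the summed cRPKM of BMP2, BMP4, BMP6 and BMP7, BMP2 made up 63.2% and 64.3% with active photolyase, 66.9% and 67.4% after UVC, and 50.6% and 50.5% in control. BMP6 made up 14.9% and 15.8%, 0.376% and 0.371%, and 17.0% and 18.5% in the same order of groups.

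**Figure D1:**
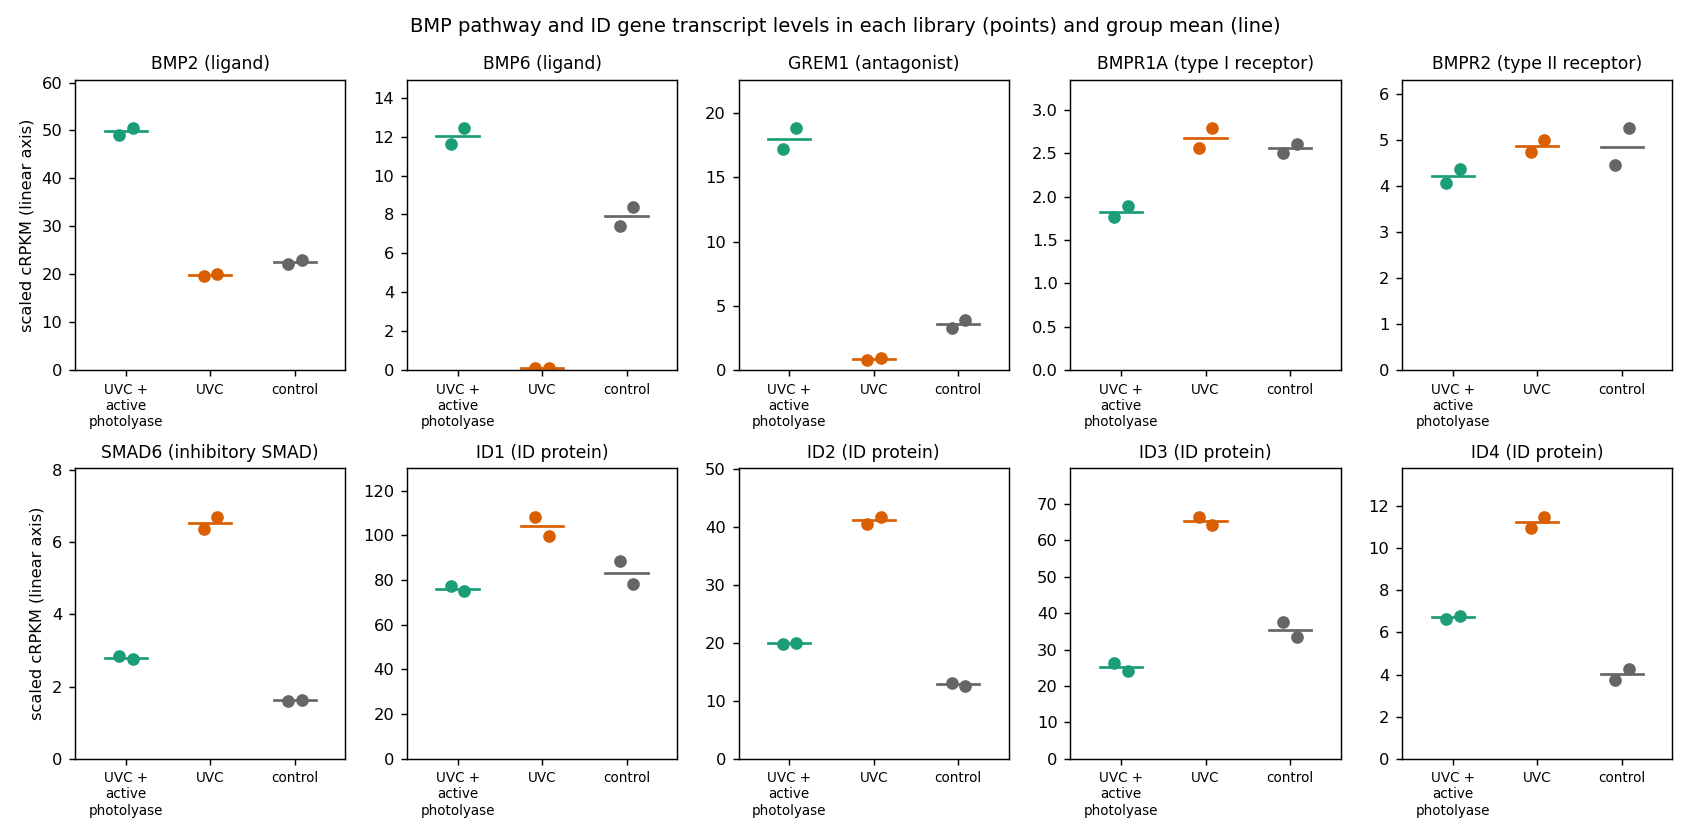
Scaled cRPKM (linear vertical axes that start at 0) of each gene in the 2 libraries of UVC with active photolyase, UVC and control; points are libraries and lines are group means. BMP2, BMP6 and GREM1 are highest with active photolyase, at 49.8, 12.0 and 18.0, while SMAD6 and the 4 ID genes are highest after UVC.

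The receptors were not called between UVC and control with TMM factors, and the widest difference of BMPR2 over the 3 comparisons was smaller than that of any other of the 10 genes. BMPR1A encodes a type I receptor kinase that signals to SMAD1 and SMAD5. It had 1.76 and 1.89 scaled cRPKM with active photolyase, 2.56 and 2.79 after UVC, and 2.50 and 2.61 in control. The photolyase libraries were below both other groups, at -0.55 ± 0.09 against UVC and -0.49 ± 0.09 against control on the log2 scale, and UVC and control overlapped (0.06 ± 0.09, not called). In annotated BMPR1A transcripts 12.0% of 50-base words also occur on the same strand in transcripts of other genes, so its level is less certain than those of the other 9, where that share was at most 0.651% on the same strand and 0.983% on the opposite strand.

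BMPR2 encodes the type II receptor whose loss causes heritable pulmonary arterial hypertension. It had 4.07 and 4.38 scaled cRPKM with active photolyase, 4.74 and 5.01 after UVC, and 4.45 and 5.26 in control. The log2 fold change was -0.21 ± 0.07 for UVC with active photolyase against UVC and -0.20 ± 0.07 for UVC with active photolyase against control. UVC and control overlapped, at 0.01 ± 0.07, and were not called. With library totals UVC against control was 0.48 for BMPR1A and 0.42 for BMPR2, both called higher, while BMPR2 in UVC with active photolyase against control was -0.09 and not called. The BMPR2 calls also rested on single libraries: UVC with active photolyase against UVC was not called without UVC replicate 2 (-0.17) or without photolyase replicate 1 (-0.16), and UVC with active photolyase against control was not called without control replicate 2 (-0.08) or without photolyase replicate 1 (-0.15).

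SMAD6 encodes an inhibitory SMAD that blocks SMAD1 signalling and is itself a target of BMP signals. It had 2.85 and 2.76 scaled cRPKM with active photolyase, 6.37 and 6.71 after UVC, and 1.59 and 1.64 in control. UVC was highest, and the photolyase libraries lay between it and control. The log2 fold change was -1.22 ± 0.08 for UVC with active photolyase against UVC, 2.02 ± 0.08 for UVC against control and 0.80 ± 0.09 for UVC with active photolyase against control. SMAD7, the other inhibitory SMAD gene and not on the list, ran the other way, at 18.0 and 18.4, 5.39 and 4.66, and 11.0 and 10.7 scaled cRPKM in the same order of groups. Within a library, SMAD6 was 0.158 and 0.150 of the SMAD7 level with active photolyase, 1.18 and 1.44 after UVC, and 0.145 and 0.154 in control, so SMAD6 exceeded SMAD7 in the UVC libraries and in no other.

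The 4 ID genes were each called higher after UVC than in control and lower with active photolyase than after UVC, in these libraries with TMM factors and with library totals alike. Over all tested genes 42.5% were called higher in the first comparison and 39.9% lower in the second, with TMM factors. Among genes that span under 5 kb, which include ID1, ID3 and ID4, the shares were 65.5% and 44.6%. The ID genes differed in size and in where the photolyase libraries lay relative to control. Their promoter windows (RefSeq, GRCh38.p14, the 250 bases before the start, 5′ to 3′) are shown because these genes moved in the same direction in both comparisons. They lie at chr20:31605039-31605288, plus strand for ID1, chr2:8681806-8682055, plus strand for ID2, chr1:23559502-23559751, minus strand for ID3 and chr6:19837120-19837369, plus strand for ID4. Capitals mark the motifs named for GREM1, on either strand, and in ID1 the TATAAA matches of both strands overlap.
ID1: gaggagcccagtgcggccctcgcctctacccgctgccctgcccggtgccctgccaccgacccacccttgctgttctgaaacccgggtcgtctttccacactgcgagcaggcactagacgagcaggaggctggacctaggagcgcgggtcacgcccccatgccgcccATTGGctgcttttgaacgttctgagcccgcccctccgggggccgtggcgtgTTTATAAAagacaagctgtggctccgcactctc
ID2: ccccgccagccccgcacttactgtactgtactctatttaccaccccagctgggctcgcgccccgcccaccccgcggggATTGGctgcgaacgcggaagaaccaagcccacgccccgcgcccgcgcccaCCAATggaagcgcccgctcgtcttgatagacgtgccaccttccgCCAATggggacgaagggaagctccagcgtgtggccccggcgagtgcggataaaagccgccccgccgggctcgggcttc
ID3: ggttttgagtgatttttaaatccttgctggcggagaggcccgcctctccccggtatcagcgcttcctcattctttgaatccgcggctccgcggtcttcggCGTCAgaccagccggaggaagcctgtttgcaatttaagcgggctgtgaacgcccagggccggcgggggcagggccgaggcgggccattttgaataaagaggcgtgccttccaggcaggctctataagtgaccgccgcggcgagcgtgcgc
ID4: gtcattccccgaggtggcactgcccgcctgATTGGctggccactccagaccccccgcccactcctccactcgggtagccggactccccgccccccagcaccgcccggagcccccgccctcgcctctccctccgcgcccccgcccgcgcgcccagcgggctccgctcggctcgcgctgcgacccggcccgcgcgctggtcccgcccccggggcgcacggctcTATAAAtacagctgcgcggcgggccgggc

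No motif searched was common to the 4 ID windows. TATAAA stood in ID1 and ID4, CCAAT in ID1 and ID4 (1 match each) and in ID2 (3 matches), and TGACG in ID3 alone. The windows were 66.0%, 69.2%, 62.0% and 78.8% G and C for ID1, ID2, ID3 and ID4, where the median of all windows was 58.0%.

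ID1, the most abundant of the family in every library, had 77.2 and 74.9 scaled cRPKM with active photolyase, 108 and 99.7 after UVC, and 88.6 and 78.1 in control. UVC lay above both other groups. On the log2 scale ID1 was -0.45 ± 0.06 for UVC with active photolyase against UVC and 0.32 ± 0.06 for UVC against control. UVC with active photolyase against control was -0.13 ± 0.06 and not called, but it was called at -0.22 without control replicate 2, at -0.13 with the replicate block and at -0.18 without a filter. ID1 had the smallest differences of the 4.

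ID2, which in its protein form can bind the retinoblastoma protein as well as E proteins, had 19.7 and 20.0 scaled cRPKM with active photolyase, 40.5 and 41.8 after UVC, and 13.1 and 12.6 in control. Its difference between UVC and control was the largest of the family, a log2 fold change of 1.68 ± 0.05 or 3.19-fold against control. With active photolyase it was -1.05 ± 0.05 against UVC and 0.63 ± 0.05 against control, so the photolyase libraries lay between the others. An antisense gene, ID2-AS1, overlaps 1.72% of its exon bases, and since the use of strand in counting is not given in the sources used here, reads from that stretch cannot be assigned.

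ID3 had 26.3 and 24.2 scaled cRPKM with active photolyase, 66.5 and 64.3 after UVC, and 37.7 and 33.3 in control. It was the ID gene with the lowest value in UVC with active photolyase against UVC (-1.37 ± 0.07), and for UVC against control it was 0.88 ± 0.06. The photolyase libraries lay below control as well, at -0.49 ± 0.07, and ID3 was the one ID gene called lower there, also with library totals.

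ID4, the least abundant of the family, had 6.64 and 6.80 scaled cRPKM with active photolyase, 11.0 and 11.5 after UVC, and 3.73 and 4.27 in control. Its log2 fold change was -0.74 ± 0.07 for UVC with active photolyase against UVC, 1.49 ± 0.08 for UVC against control and 0.75 ± 0.08 for UVC with active photolyase against control. Like ID2, it lay between UVC and control in the photolyase libraries.

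The make-up of the ID pool within a library, which needs no scaling, differed between groups. ID1 made up 59.4% and 59.5% of the summed ID cRPKM with active photolyase, 47.9% and 45.9% after UVC, and 61.9% and 60.9% in control. ID2 made up 15.2% and 15.9% with active photolyase, 17.9% and 19.2% after UVC, and 9.18% and 9.83% in control. ID3 made up 20.2% and 19.2% with active photolyase, 29.4% and 29.6% after UVC, and 26.3% and 26.0% in control. ID4 made up 5.12% and 5.40% with active photolyase, 4.85% and 5.29% after UVC, and 2.61% and 3.33% in control. Thus ID1 held a smaller and ID2, ID3 and ID4 a larger share after UVC than in control. With active photolyase the ID1 share was just below control, while ID3 held less and ID2 and ID4 more. The ID4 share there was near that after UVC. The summed scaled level of the family was 130 and 126 with active photolyase, 226 and 217 after UVC, and 143 and 128 in control.

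**Figure D2:**
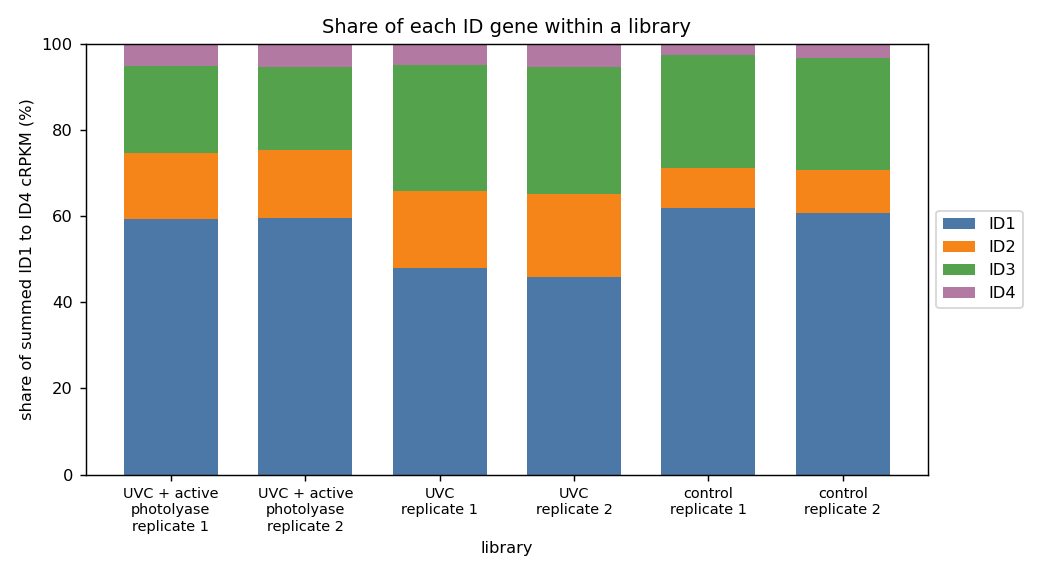
Share of each ID gene in the summed cRPKM of ID1 to ID4 (percent, vertical axis) in each of the 6 libraries. ID1 takes 45.9 to 47.9% in the UVC libraries and 59.4 to 61.9% in the other 4.

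**Figure D3:**
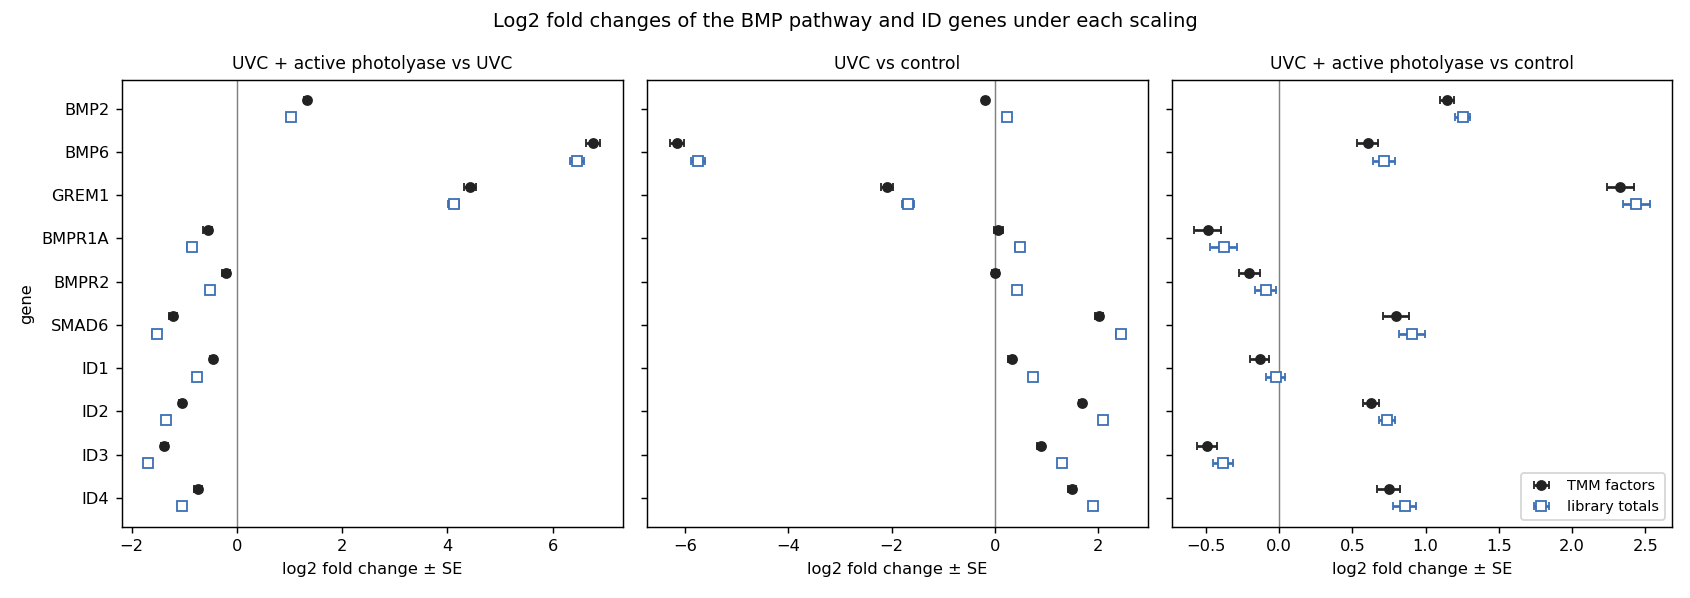
Log2 fold change ± SE (horizontal axes, which differ in range) of the 10 genes in the 3 comparisons, with TMM factors (filled) and library totals (open squares). The scalings differ by a shift within each comparison, which carries BMP2 across 0 for UVC against control (-0.19 and 0.23).

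Gene span (from GENCODE 29, for 98.3% of tested genes) did not itself enter the choice of genes. The fold changes ranked below within classes of span were known at that choice, so the ranks are descriptions only. In the class of genes under 5 kb, 65.5% of 1120 genes were called higher after UVC than in control and 20.8% lower, and in the class over 100 kb, 33.7% of 2041 were called higher and 51.7% lower. ID1 (1.23 kb), ID3 (1.88 kb) and ID4 (3.30 kb) fall in the first class, whose median log2 fold change was 0.46, and ID2 (5.61 kb) in the class of 5 to 20 kb, whose median was 0.19. In UVC against control, 39.9% of its class lay below ID1, 74.2% below ID3, 89.9% below ID4 and 97.2% below ID2. ID1 was thus near the middle of genes of like span, and ID2 near the top. In UVC with active photolyase against UVC, 24.4% of its class lay below ID1, 1.34% below ID3, 9.73% below ID4 and 1.23% below ID2.

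The long genes were not alike. BMP6 (155 kb), BMPR1A (176 kb) and BMPR2 (191 kb) share the class over 100 kb. In UVC against control 0.049% of that class lay below BMP6, but 61.0% lay below BMPR1A and 58.5% below BMPR2. SMAD6 (80.6 kb) lay above 99.6% of the 2009 genes of 50 to 100 kb in the same comparison, and GREM1 (27.1 kb) above 3.49% of the 3213 genes of 20 to 50 kb. BMP2 (12.6 kb) lay above 34.5% of the 3345 genes of 5 to 20 kb. In UVC with active photolyase against UVC, BMP6 lay above 99.95% of its class and GREM1 above 99.8% of its own, while 0.149% of its class lay below SMAD6.

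**Figure D4:**
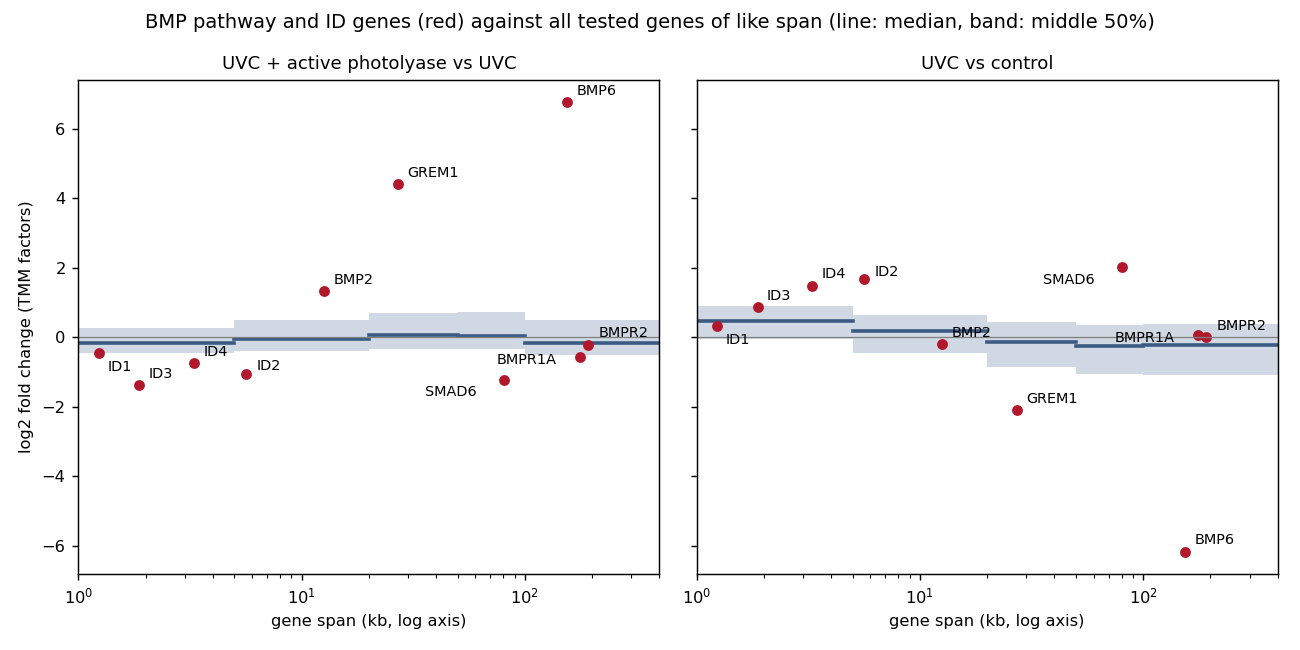
Log2 fold change (vertical axis) against gene span in kb (log horizontal axis) for UVC with active photolyase against UVC and for UVC against control. Lines and bands are the median and the middle 50% of all tested genes of a span class, and red points are the 10 genes. BMP6 at 6.77 and -6.17 lies far outside the band of its class, while BMPR1A and BMPR2, of like span, lie in it for UVC against control.

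Around these 10 genes, 79 other genes of the pathway were listed by role, of which 76 had values and 43 passed the filter. These lists, like the 10 genes, were chosen with earlier results of these data known. Genes named from them were picked by smallest p or after their values were seen. Their adjusted p-values are therefore descriptions and not independent tests. BMP3, HEY1 and NEO1 passed the filter through the UVC libraries alone, BMPER and TGFBR3 through control alone, and MSX1 through active photolyase alone. For these genes the filter itself favours a higher value in that group. Of the 43, 21 were called higher, 14 lower and 8 were not called for UVC with active photolyase against UVC, with a median log2 fold change of 0.12, against -0.04 over all tested genes. For UVC against control, 15 were called higher, 24 lower and 4 were not called (median -0.37, against 0.00 over all tested genes). The counts for UVC with active photolyase against control were 15, 17 and 11 (median -0.01, against 0.01). With library totals the 43 split into 19 higher and 21 lower for UVC with active photolyase against UVC, 19 and 18 for UVC against control, and 19 and 12 for UVC with active photolyase against control, so in each comparison the larger side changed with the scaling. The shares called over all tested genes are those given above. HES1 stands both among targets and among partners of ID proteins, and was counted once in these totals.

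Among other BMP ligands 3 of 11 passed the filter. BMP4, which acts through the same receptors as BMP2, was 10.2 ± 0.732 scaled cRPKM with active photolyase, 3.05 ± 0.159 after UVC and 6.19 ± 0.499 in control (SD, n = 2 each). It rose by 1.74 ± 0.09 on the log2 scale for UVC with active photolyase against UVC (adjusted p = 6.16e-10), fell for UVC against control (-1.02 ± 0.09, adjusted p = 1.71e-07) and rose for UVC with active photolyase against control (0.72 ± 0.08, adjusted p = 6.94e-06). BMP3, whose product opposes other BMPs, fell for UVC with active photolyase against UVC (-0.68 ± 0.12, adjusted p = 0.000148) and rose for UVC against control (0.92 ± 0.12, adjusted p = 8.42e-06). BMP7 fell in both comparisons with control, at -0.37 ± 0.07 for UVC with active photolyase (adjusted p = 0.000273) and at -0.29 ± 0.07 for UVC (adjusted p = 0.001), and the second turned to 0.13, not called, with library totals.

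Secreted antagonists and modulators moved in different directions. Of 9 tested, 4 rose, 2 fell and 3 were not called for UVC with active photolyase against UVC, and 3 rose, 5 fell and 1 was not called for UVC against control. With library totals 3 were called higher and 5 lower in the first comparison and 4 each way in the second, so the balance of this list depends on the scaling. FST, which encodes follistatin, a binder of activins and some BMPs, was the most abundant, at 515 and 542 scaled cRPKM with active photolyase, 136 and 137 after UVC, and 746 and 744 in control. It rose by 1.95 ± 0.05 for UVC with active photolyase against UVC (adjusted p = 1.27e-12) and fell for UVC against control (-2.45 ± 0.06, adjusted p = 1.04e-13), so that, unlike GREM1, the photolyase libraries stayed below control. SOST, the gene of sclerostin, rose by 2.22 ± 0.11 (adjusted p = 3.98e-10) for UVC with active photolyase against UVC and by 0.63 ± 0.10 (adjusted p = 8.82e-05) against control. CRIM1, a membrane protein that tethers BMPs, fell for UVC against control (-1.55 ± 0.06, adjusted p = 4.17e-11) and for UVC with active photolyase against control (-1.30 ± 0.06, adjusted p = 2.61e-09). FSTL3 rose by 0.69 ± 0.05 (adjusted p = 1.86e-08) and NBL1 by 0.38 ± 0.05 (adjusted p = 7.27e-06) for UVC against control. BMP1, a protease and not a BMP ligand (-0.30 ± 0.05, adjusted p = 9.77e-05), and TWSG1 (-0.22 ± 0.07, adjusted p = 0.00995) fell for UVC with active photolyase against UVC. BMPER, which binds BMPs outside the cell, fell for UVC with active photolyase against control (-1.81 ± 0.14, adjusted p = 1.43e-07), where FSTL3 rose by 0.72 ± 0.05 (adjusted p = 7.35e-08).

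Of 7 other receptors and co-receptors tested, 2 rose and 5 fell for UVC against control. For UVC with active photolyase against UVC, 5 rose, 1 fell and 1 was not called. Over all tested genes 43.1% were called lower in the first comparison and 39.2% higher in the second. With library totals 2 were higher, 4 lower and 1 not called in the first, and 5 higher and 2 lower in the second. The BMP co-receptor genes RGMA and RGMB were 8.42 ± 0.107 and 4.33 ± 0.235 scaled cRPKM with active photolyase, 1.41 ± 0.265 and 1.10 ± 0.00706 after UVC, and 9.10 ± 0.189 and 4.04 ± 0.256 in control. They rose by 2.58 ± 0.11 (adjusted p = 6.86e-11) and 1.98 ± 0.08 (adjusted p = 7.11e-11) for UVC with active photolyase against UVC, and for UVC against control they fell (-2.70 ± 0.11, adjusted p = 2.69e-11, and -1.88 ± 0.08, adjusted p = 8.29e-11). BAMBI, a pseudoreceptor that dampens signalling, rose by 0.82 ± 0.05 for UVC against control (adjusted p = 2.27e-09) and by 1.33 ± 0.05 for UVC with active photolyase against control (adjusted p = 3.48e-10). NEO1, the gene of the RGM receptor neogenin, rose by 0.92 ± 0.12 for UVC against control (adjusted p = 5.83e-06) and fell for UVC with active photolyase against UVC (-0.73 ± 0.12, adjusted p = 5.65e-05). ACVR1 (-0.40 ± 0.07, adjusted p = 0.000214) and TGFBR3 (-0.81 ± 0.11, adjusted p = 4.01e-05) fell for UVC with active photolyase against control. CDH5, the endothelial marker that passed the filter, also fell for UVC against control (-2.98 ± 0.09, adjusted p = 2.15e-12), and its part in these values was not tested.

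Among SMADs and their regulators 9 of 11 fell and 2 rose for UVC against control, and 7 rose, 2 fell and 2 were not called for UVC with active photolyase against UVC. With library totals 7 were lower and 2 higher in the first of these, and 6 higher and 3 lower in the second. Over all tested genes, with TMM factors, 43.1% were called lower in the first and 39.2% higher in the second. The ubiquitin ligase gene SMURF1, whose product marks SMAD1 and SMAD5 for degradation, was 26.1 and 25.3 scaled cRPKM with active photolyase, 6.71 and 6.57 after UVC, and 40.5 and 40.6 in control. It rose by 1.95 ± 0.05 for UVC with active photolyase against UVC (adjusted p = 6.33e-13) and fell for UVC against control (-2.61 ± 0.05, adjusted p = 2.96e-14) and for UVC with active photolyase against control (-0.66 ± 0.05, adjusted p = 7.75e-08). SKI, a corepressor of SMADs, rose by 2.19 ± 0.06 (adjusted p = 1.30e-12) and fell (-2.26 ± 0.06, adjusted p = 5.43e-13) in the same first 2 comparisons. SMAD7 rose by 0.75 ± 0.06 for UVC with active photolyase against control (adjusted p = 4.29e-07), while SMURF2 fell (-0.75 ± 0.07, adjusted p = 5.96e-07). The 2 that rose for UVC against control were TOB1 (0.96 ± 0.05, adjusted p = 5.76e-10), whose product is antiproliferative, and the ubiquitin ligase gene STUB1 (0.38 ± 0.06, adjusted p = 6.00e-05). Both fell for UVC with active photolyase against UVC (-0.22 ± 0.05, adjusted p = 0.00149, and -0.39 ± 0.06, adjusted p = 5.79e-05). TOB1 rose by 0.74 ± 0.05 for UVC with active photolyase against control (adjusted p = 5.38e-08). SMAD5 was not analysed here.

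Of 10 tested genes listed as further targets of BMP signalling, 6 rose, 2 fell and 2 were not called for UVC against control, and 4 rose, 5 fell and 1 was not called for UVC with active photolyase against UVC. HES1, a repressor gene driven mainly by Notch, was 54.8 and 48.7 scaled cRPKM with active photolyase, 107 and 108 after UVC, and 48.0 and 45.0 in control. It rose by 1.21 ± 0.06 for UVC against control (adjusted p = 2.65e-10) and fell for UVC with active photolyase against UVC (-1.05 ± 0.06, adjusted p = 1.69e-09). The homeobox gene DLX3, which acts in epidermal differentiation, rose by 1.23 ± 0.07 (adjusted p = 1.47e-09) and fell (-0.88 ± 0.07, adjusted p = 5.87e-08) in the same comparisons. SPSB1 and GATA3 ran the other way. SPSB1 rose by 3.39 ± 0.06 for UVC with active photolyase against UVC (adjusted p = 4.68e-14) and fell for UVC against control (-3.05 ± 0.06, adjusted p = 3.99e-14), and GATA3 rose by 0.84 ± 0.06 (adjusted p = 3.53e-08) and fell (-0.88 ± 0.06, adjusted p = 1.35e-08). In UVC with active photolyase against control 8 of the 10 rose and none fell, with DLX5 (1.12 ± 0.12, adjusted p = 3.39e-06) and MSX2 (0.61 ± 0.07, adjusted p = 5.98e-06) at the smallest p. Over all tested genes 33% were called higher and 32.9% lower there. In the class of span under 5 kb, which holds HES1, HEY1, JUNB, MSX1 and DLX5, the shares were 61.1% and 7.05%.

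The last list held E proteins, which ID proteins hold off DNA, and other helix-loop-helix partners of ID proteins. Its 4 tested genes were the E protein genes TCF3, TCF4 and TCF12, and HES1, which is not an E protein gene. All 4 fell for UVC with active photolyase against UVC, where 39.9% of all tested genes were called lower. For UVC against control 2 rose, 1 fell and 1 was not called (3 higher and none lower with library totals). TCF12 was 7.41 ± 0.243 scaled cRPKM with active photolyase, 13.2 ± 0.113 after UVC and 8.41 ± 0.0950 in control. It rose by 0.65 ± 0.05 for UVC against control (adjusted p = 4.66e-08) and fell for UVC with active photolyase against UVC (-0.83 ± 0.05, adjusted p = 5.51e-09). TCF4 fell for UVC against control (-0.37 ± 0.10, adjusted p = 0.00319), a call lost with library totals (0.05), and for UVC with active photolyase against control (-0.99 ± 0.10, adjusted p = 2.56e-06). In that comparison TCF3 also fell (-0.22 ± 0.05, adjusted p = 0.002, not called with library totals) and HES1 rose by 0.16 ± 0.06 (adjusted p = 0.0368).

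**Figure D5:**
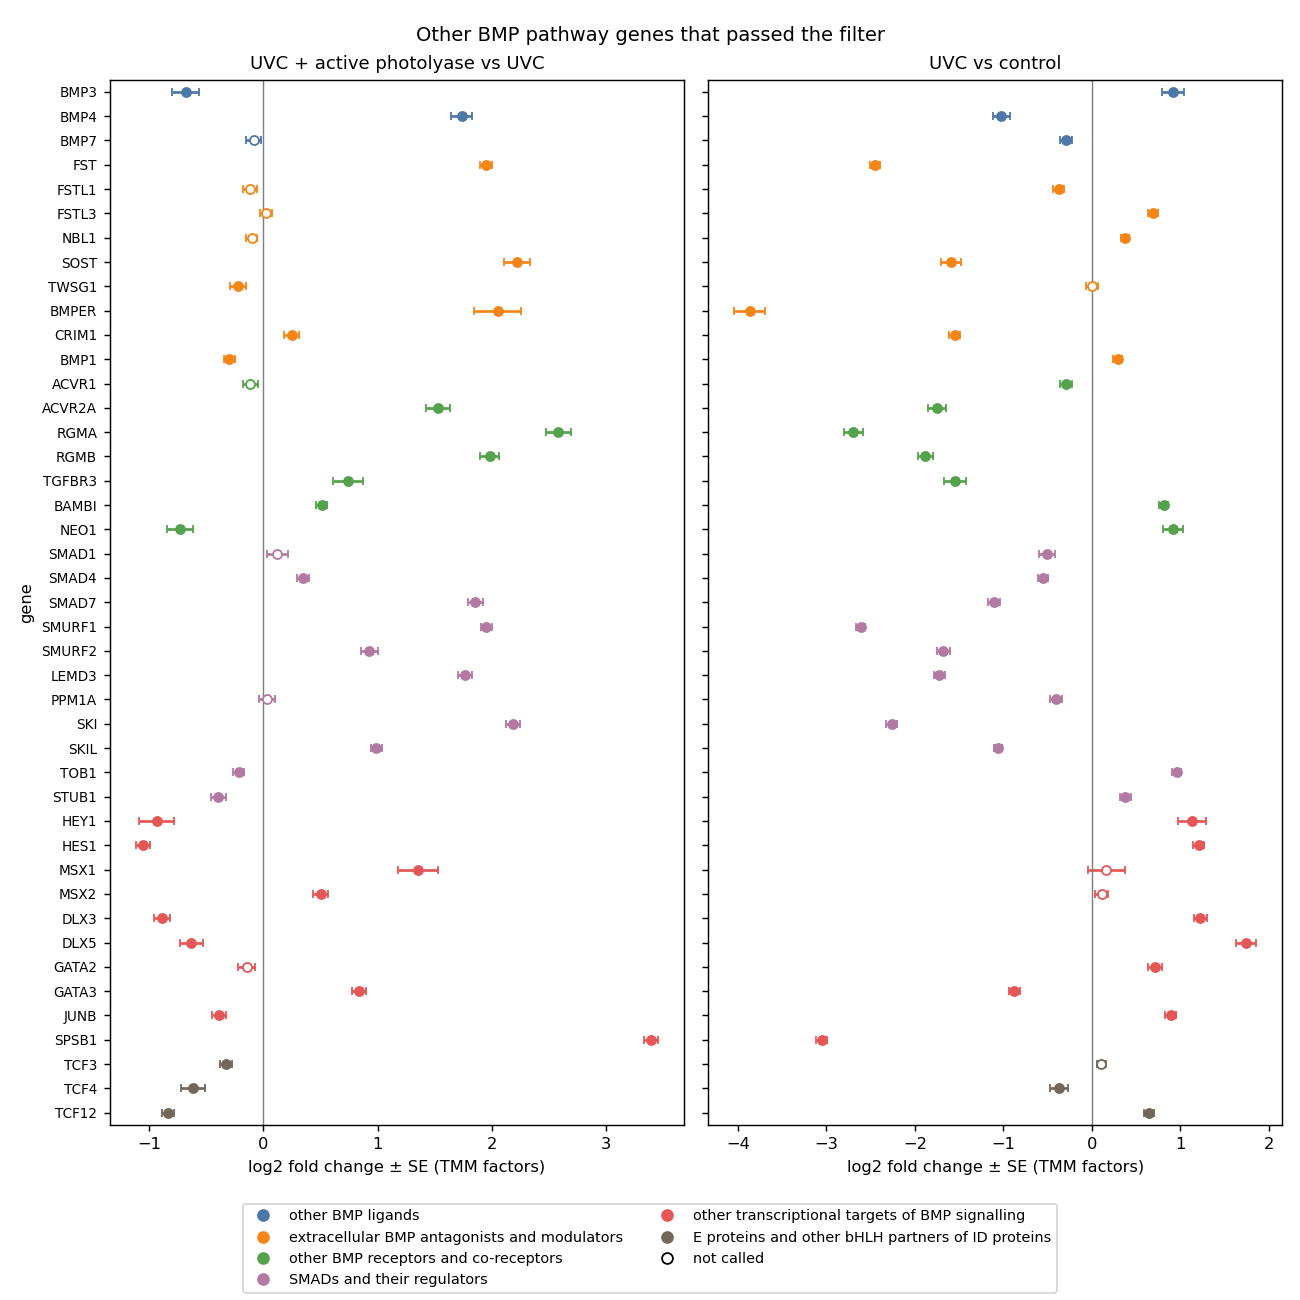
Log2 fold change ± SE (TMM factors, horizontal axes) of the 43 pathway genes outside the list of 10 that passed the filter, for UVC with active photolyase against UVC and for UVC against control, coloured by role. Open points were not called. SPSB1 lies highest on the left at 3.39, and BMPER lowest on the right at -3.87. BMPER passed the filter through control alone.

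The genes whose pattern over the 6 libraries was nearest to each of the 10 were found by the distance between centred log2 values. Nearest to BMP6 were HAS2, a hyaluronan synthase gene (139, 5.27 and 143 mean scaled cRPKM with active photolyase, after UVC and in control, distance 1.17), and KPNA7, an importin gene (41.0, 1.53 and 35.4, distance 1.24). Nearest to BMP2 was FZD10, a Wnt receptor gene, at 9.40, 3.63 and 4.27 in the same order (distance 0.0676). Nearest to GREM1 was LCE3D, a late cornified envelope gene, at 22.6, 1.35 and 4.07 (distance 0.494). The second gene was ENSG00000215019 for BMP2 and ENSG00000250038 for GREM1, neither of which has a symbol in the tables used.

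For SMAD6 the nearest were P2RX6 (distance 0.0682) and TNFSF9 (0.147), for BMPR1A GALNT7 (0.0487) and TDP1 (0.0554), and for BMPR2 PEAR1 (0.0677) and ZBTB44 (0.0782). For ID1 they were TFEB (0.0579) and LYPLA2 (0.0623), for ID2 CETN3 (0.112) and C11orf68 (0.113), for ID3 PRR15L (0.318) and TMEM117 (0.426), and for ID4 TNFRSF14 (0.0830) and CCDC14 (0.104). Of the 10 genes, BMP6 had the most distant neighbours, and its UVC values rest on 20 and 21 reads. No other ID gene could appear, since the 10 genes were left out of the search.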

How the data were processed

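RNA of 6 HaCaT samples was sequenced from libraries prepared by Illumina TruSeq protocols, per the labels' protocols. Reads were aligned with Bowtie to hg19, per the submitters' processing notes. How reads were assigned to genes, and whether by strand, is not given in the sources used here. The authors deposited a whole read count per gene and a corrected RPKM (cRPKM) in each library for 19847 Ensembl genes, of which 354 had no value. The deposited RPKM equals the deposited count divided by an effective gene length and by the library total, as the values show.

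Symbols were matched to 18913 of 19493 identifiers. Counts were tested with edgeR 4.0.16 (R 4.3.3) by the quasi-likelihood F test, two-sided, on 3 group means fitted to all 6 libraries with TMM factors of 0.885 to 1.18 (3 residual degrees of freedom, common biological coefficient of variation 4.62%). Genes reaching 1 cRPKM in at least 2 libraries were tested, with Benjamini-Hochberg adjustment over all 11926. The SE is the absolute log2 fold change over the square root of F. It can be too small where a group has few reads, as for BMP6 after UVC. The procedure was tested on simulated counts of 11926 genes, with 50 genes changed at each of 1.25, 1.5, 2 and 4-fold. At 1.25-fold 66 to 74% of them were recovered. Far fewer genes changed there than were called in the real data, so the simulation cannot check the scaling. Replicates of every group were distinct libraries (chi-square of their counts per degree of freedom 5.59 to 24.2). Alternatives were library totals, relative log expression factors, DESeq2 1.42.0, limma 3.58.1, other filters, other sets of libraries and a replicate block. 

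The 10 genes and all lists were chosen with earlier results of these data known. From each list and comparison the called genes of smallest p were named, up to 2 each way; other genes are named where a count is explained or a level compared, after their values were seen. Nearest genes were found by Euclidean distance of log2(scaled cRPKM + 0.1), centred on each gene's mean. Gene spans came from GENCODE 29 (GRCh38) and promoters from RefSeq (GRCh38.p14); no coordinates of these were joined to the hg19 data.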

Additional observations from a re-analysis of the deposited data

How the results depend on the processing

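Of 447 recomputed fold changes of the 10 genes, 425 kept their side of the threshold. The 425 include uncalled values whose direction turned. For UVC against control, leaving out single libraries gave -0.11 to 0.13 for BMPR2 and -0.0015 to 0.13 for BMPR1A. A further 10 lost their call, 9 gained one and 3 were reversed with a call in either fit. The reversed values were BMP2 in UVC against control, at 0.23 with library totals, 0.22 with limma on log2(cRPKM + 1) and 0.23 with limma on log2(cRPKM + 0.1), which by construction use the library totals. With a filter of 5 cRPKM the same value was -0.07 and not called. The other lost or gained calls were of BMPR1A, BMPR2 and ID1. For BMPR2 the calls of UVC with active photolyase were lost without a filter against UVC (-0.16), and with a filter of 5 cRPKM against control (-0.18). ID1 in UVC with active photolyase against control was called without a filter (-0.18). Of the 12 counts of called genes, 4 recomputed values moved by over 1.5 times, all in the other pathway genes. For UVC with active photolyase against UVC, 22 were called lower with each limma setting, against 14. For UVC against control, 24 were called higher without a filter, which tests more genes, against 15. For UVC with active photolyase against control, 11 were called lower with a filter of 5 cRPKM, which tests fewer, against 17. With library totals the pathway genes split into 19 higher and 21 lower, 19 and 18, and 19 and 12 in the 3 comparisons. Leaving out each library in turn gave 20 to 21 higher and 13 to 17 lower for UVC with active photolyase against UVC, 15 to 16 and 24 for UVC against control, and 14 to 17 each for UVC with active photolyase against control.

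The replicate numbers came from titles and no label ties them to a culture or batch. Deviations of same-numbered libraries correlated at 0.21, -0.03 and 0.05 in the 3 comparisons. The main fit did not treat the numbers as pairs, and whether they mark a shared culture or batch is not known. With the replicate block the pathway counts were 21 and 14, 15 and 24, and 15 and 17, as without it, and over all genes 4690 and 4790, 5086 and 5152, and 3981 and 3956. With the block, ID1 in UVC with active photolyase against control was called (-0.13). The depth behind BMP6 after UVC, 20 and 21 reads, limits the precision of its fold changes. The cause of the other changes of call was not tested.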

Other observations

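Several pathway genes lay under the filter and were not tested. NOG, the gene of the BMP antagonist noggin, was just short of it, with 0.71 and 0.61 deposited cRPKM with active photolyase (91 and 76 reads), 0.18 and 0.22 after UVC (19 and 23 reads), and 0.92 and 1.09 in control (119 and 140 reads). UVC was lowest, as for GREM1. HAMP, the hepcidin gene and a known BMP target in liver, had 19 and 6 reads with active photolyase, 14 and 30 after UVC, and 5 and 3 in control, with groups that overlapped between UVC with active photolyase and UVC. SMAD9, which encodes a BMP-responsive SMAD, had 64 and 45 reads with active photolyase, 104 and 110 after UVC, and 27 and 32 in control. The helix-loop-helix gene ASCL2 had 92 and 65, 101 and 140, and 25 and 29 reads in the same order of groups. These genes were chosen after their values were seen.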
